A study of Mus musculus with 13 samples.

Results

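Lyve1 and 9 marker genes were followed in mouse lung kept at 21% oxygen (normoxia) or at 80% oxygen (hyperoxia) for 5 days. The 10 genes were taken by symbol from a table of 32544 gene symbols. The group was chosen by the large rise of Lyve1 in hyperoxia in these same counts, so the change of Lyve1 is a description with no test. The other genes are 4 markers of lymphatic endothelium, Prox1, Ccl21a, Mmrn1 and Reln, and 5 markers of interstitial macrophages, Mrc1, Folr2, Cd163, F13a1 and Pf4. The question was whether either set moved with Lyve1.

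RNA of whole lung was read by Quant-seq, which sequences the 3′ end of polyadenylated transcripts, in 7 normoxic and 6 hyperoxic libraries. All mice were wild-type C57BL/6J males, and the lungs were perfused with cold DPBS before freezing. Every sample is labelled with an age of 7 weeks. The paper gives that as the age at purchase and places its experiments at older ages, so the age at sampling is uncertain. The labels number the samples within each condition without saying that each came from its own mouse, so p-values measure the spread between these samples. Total counts ran from 1607111 to 3387736 in normoxia and from 2029006 to 4540288 in hyperoxia. The hyperoxia 1 library stood apart in log2 CPM (counts scaled to library size and composition). Its correlation with the other 12 was 0.721 to 0.833, against 0.854 to 0.967 among those 12. Lung markers were present in both groups, and Ager of type I alveolar cells averaged 604 ± 159 CPM (SD, n = 7) and 557 ± 165 CPM (SD, n = 6). Sftpc, the surfactant protein of type II cells, fell (log2 fold change -2.72, SE 0.60, adjusted p = 0.00418, edgeR).

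LYVE1 is a hyaluronan receptor of the cell surface, known from lymphatic endothelium and also carried by macrophages that lie along vessels. PROX1 is the transcription factor that sets and keeps lymphatic identity, and lymphatic vessels make the chemokine CCL21, which draws dendritic cells and T cells. Interstitial macrophages of the lung live outside the airspaces and often carry the mannose receptor MRC1 together with LYVE1.

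The Lyve1 gene lies on the minus strand of chromosome 7, from 110850607 to 110863239 (GRCm38, which is mm10), and overlaps no other gene of the annotation used. CPM values of genes, above and below, are after TMM scaling, a correction for differences in library composition. Lyve1 had a lowest value of 474, a median of 568.2 and a highest of 909 CPM in normoxia. In hyperoxia the lowest was 3740, the median 4650 and the highest 8090 CPM. Each hyperoxic library was above each normoxic one, and hyperoxia 2 and 3 were the highest of all. The means were 625.3 ± 148 CPM (SD, n = 7) and 5510 ± 1790 CPM (SD, n = 6), an 8.81-fold rise (log2 fold change 3.14, SE 0.22). By log2 fold change Lyve1 stood 17th of the 12496 genes that passed the low-count filter. The log2 fold change was 3.25 without hyperoxia 1. Library names in the labels carry letters, whose meaning is not given, and within B to M and within O to S the log2 fold change was 3.33 and 3.06.

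**Figure D1:**
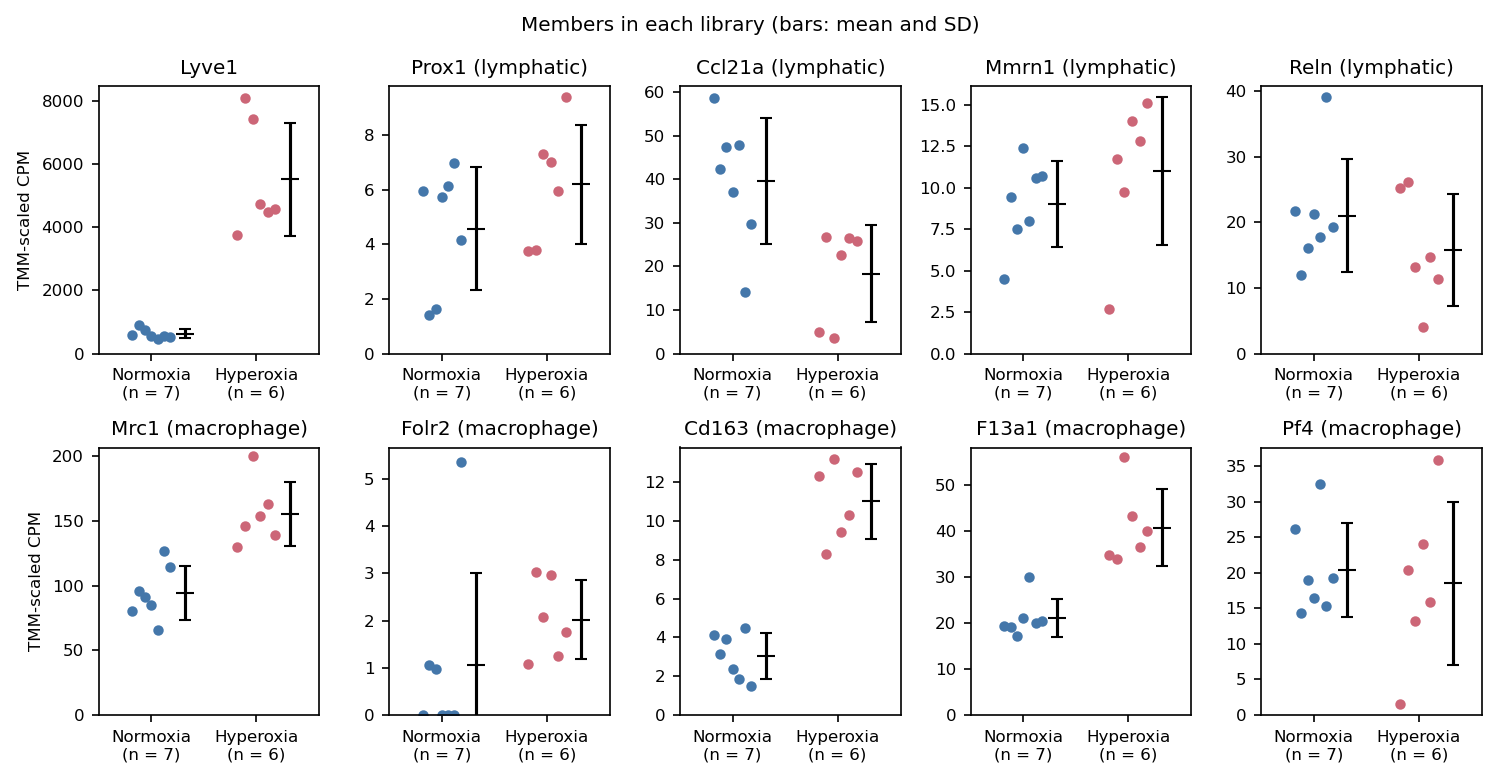
Level of each of the 10 genes in every library, as TMM-scaled CPM on linear axes that start at 0. Points are libraries and bars are the mean and SD (the SD bar of Folr2 in normoxia is cut at 0). Lyve1, Mrc1, Cd163 and F13a1 do not overlap between the conditions, and the 4 lymphatic markers do.

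Of the 4 lymphatic markers, 0 passed the test in either direction, where 22.6% of all genes tested did (11.8% were higher and 10.8% lower in hyperoxia; adjusted p under 0.05, edgeR's quasi-likelihood test with Benjamini-Hochberg adjustment over all genes tested). At an unadjusted p under 0.05 there was 1, Ccl21a, and DESeq2 called 1 and limma-voom 0 after adjustment. Their median log2 fold change was -0.07, beside -0.03 over all genes tested.

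Prox1 lies on the minus strand of chromosome 1, from 190118035 to 190170714. It ran from 1.4 to 6.97 CPM in normoxia, with a median of 5.72, and from 3.75 to 9.4 CPM in hyperoxia, with a median of 6.47. The groups overlapped, with 3 of 6 hyperoxic libraries above all normoxic ones. The log2 fold change was 0.47 (SE 0.37, 95% interval -0.32 to 1.26, adjusted p = 0.4, edgeR). Mmrn1 encodes multimerin 1, a secreted protein also stored in platelets. It ran from 4.48 to 12.4 CPM in normoxia and from 2.68 to 15.1 CPM in hyperoxia, with medians of 9.43 and 12.3. The lowest value of all was that of hyperoxia 1, and the groups overlapped (log2 fold change 0.30, SE 0.32, 95% interval -0.37 to 0.97, adjusted p = 0.536, edgeR). Prox1 and Mmrn1 had 217 and 412 counts in all.

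Reln encodes reelin, a large secreted glycoprotein. It ran from 11.9 to 39.0 CPM in normoxia, with a median of 19.3, and from 4.04 to 26.1 CPM in hyperoxia, with a median of 13.9. The groups overlapped, and the log2 fold change was -0.44 (SE 0.36, 95% interval -1.21 to 0.32, adjusted p = 0.414, edgeR). Its direction differed between the sets of library names, at 0.32 within B to M and -1.56 within O to S (adjusted p = 0.552 and 0.046, edgeR), a difference that was not tested. The annotation has 3 genes on the same strand and 4 on the opposite strand that overlap Reln, and whether counting used the strand is not stated.

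Ccl21a, the gene of the chemokine CCL21, was the lowest placed of the lymphatic markers. It ran from 14.2 to 58.6 CPM in normoxia, with a median of 42.3, and from 3.47 to 26.8 CPM in hyperoxia, with a median of 24.2. Hyperoxia 1 and 3, at 4.83 and 3.47 CPM, lay below all normoxic libraries, and the other 4 hyperoxic ones lay between 22.6 and 26.8 CPM. The log2 fold change was -1.08 (SE 0.42, 95% interval -1.97 to -0.18), with an adjusted p of 0.0792 by edgeR and an exact permutation p of 0.0256 (two-sided, over 1716 allocations of the libraries). Within the libraries named O to S the log2 fold change was 0.18, and within B to M it was -1.94. The call depended on the tool and on 1 library: the adjusted p was 0.0379 with DESeq2 and 0.0396 with edgeR without normoxia 6.

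The value of Ccl21a is uncertain for a further reason, its near-identical copies. Ccl21a lies on chromosome 4 from 42772860 to 42773993 on the minus strand, and its copy Gm21541 from 41903610 to 41904743 on the plus strand of the same chromosome. Their transcripts, of 870 bases each, are identical at 864 bases. The differences, counted from 1 at the transcript's 5′ end with the base of Ccl21a first, are G24A, T159A, C269T, C640T, T812C and G856A. Only 3 of the 6 lie in the last 300 bases, the end that Quant-seq reads. The stretch around C269T, 1 of 2 differences in the coding part, is shown as an example of how little tells the copies apart, and it lies outside those last 300 bases. It covers positions 249 to 289, with position 269 in capitals.
Ccl21a: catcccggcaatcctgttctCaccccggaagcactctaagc
Gm21541: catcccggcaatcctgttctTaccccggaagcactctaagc
Gm21541 had 76 counts in normoxia 2, 20 in normoxia 4, 20 in normoxia 6, 9 in hyperoxia 1 and 0 in the other libraries. Ccl21c had 22 counts in hyperoxia 4 and 0 elsewhere, and Ccl21b had 0 in every library. Summed over the copies, an alternative added after seeing the data, the log2 fold change was -1.14 (SE 0.39, adjusted p = 0.0439, edgeR).

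The other lymphatic genes that were tested gave values close to those of all genes. Of 10 genes, 6 passed the low-count filter and 0 passed the test in either direction with edgeR, DESeq2 or limma-voom (0 also at an unadjusted p under 0.05 in edgeR), beside 22.6% of all genes tested, with log2 fold changes from -0.23 to 0.08 and a median of -0.02. They include Flt4, the receptor of the lymphatic growth factors (-0.23, SE 0.25), and Pdpn, a surface glycoprotein shared with type I alveolar cells (0.07, SE 0.33). Sox18, Foxc2, Tbx1 and Cldn11 were too low to test. Sox18, with 96 counts in all, averaged 4.61 ± 5.26 CPM in the 7 normoxic and 0.333 ± 0.59 CPM in the 6 hyperoxic libraries (SD). Of the 6 hyperoxic libraries, 5 lay below all normoxic ones. Of the 6 genes of the growth factor axis, 5 were tested and 0 passed by the same tools or unadjusted (22.6% of all genes tested did in edgeR), with Vegfc, which drives lymphatic sprouting, at 0.42 (SE 0.28) and Figf, the table's symbol for Vegfd, at 0.09 (SE 0.26).

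**Figure D2:**
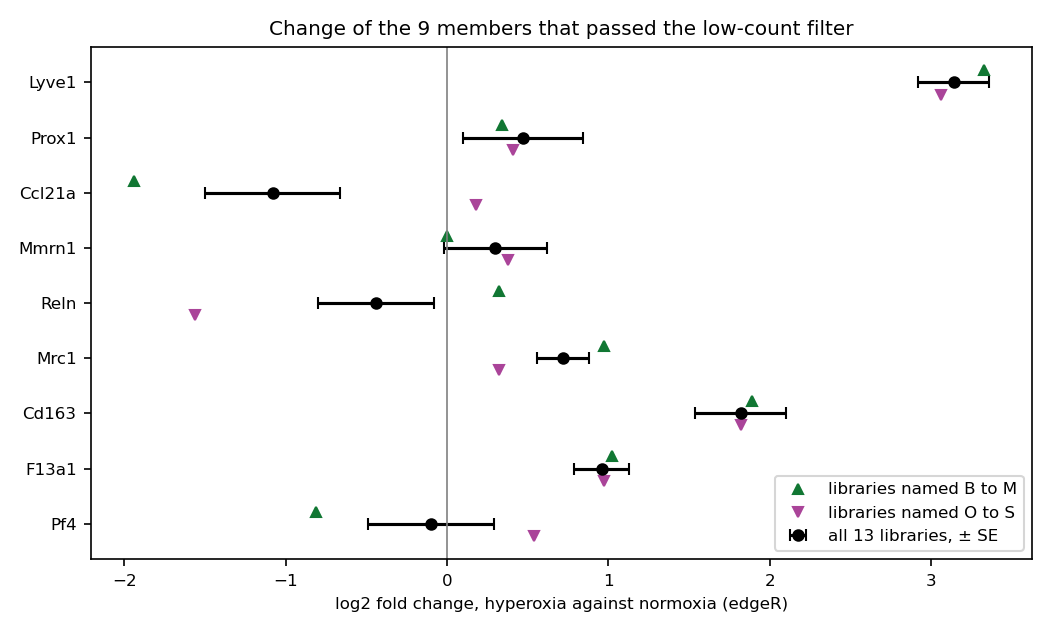
log2 fold change of hyperoxia against normoxia for the 9 genes that passed the low-count filter. Black points with bars are the edgeR value and SE over all 13 libraries, and triangles are those of the name sets B to M and O to S. Lyve1, Prox1, Mrc1, Cd163 and F13a1 are above 0 in both sets, and the triangles of Ccl21a, Reln and Pf4 lie on opposite sides of 0.

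Of the 5 macrophage markers, 4 passed the low-count filter, and 3 of these (Mrc1, Cd163 and F13a1) rose, beside 11.8% of all genes tested. The 3 also did not overlap between the conditions, which held in this direction for 5.6% of all genes tested. The median log2 fold change of the 4 was 0.84. Cd163 met the filter through its hyperoxic libraries, and with at least 10 counts in every library 2 markers were called. The markers were chosen with earlier results of these data known, so the comparison with these shares is a description. In bulk tissue, more cells of a type and more RNA per cell cannot be told apart.

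Cd163 encodes the scavenger receptor that takes up haemoglobin bound to haptoglobin (chromosome 6, plus strand, 124304656 to 124330527). It ran from 1.49 to 4.46 CPM in normoxia, with a median of 3.14, and from 8.31 to 13.2 CPM in hyperoxia, with a median of 11.3. No library overlapped, and Cd163 rose 3.53-fold (log2 fold change 1.82, SE 0.28, 95% interval 1.23 to 2.40, adjusted p = 0.000241, edgeR). The exact permutation p was 0.000583, the smallest that 1716 allocations can give. The value rests on 3 to 57 counts per library, with 3 to 16 in normoxia. Cd163 met the low-count filter through its hyperoxic libraries, and with a filter of at least 10 counts in every library it was not tested, which left 2 macrophage markers called.

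F13a1, the A subunit of coagulation factor XIII, is made by macrophages and carried by platelets (chromosome 13, minus strand, 36867178 to 37050244). It ran from 17.3 to 30.0 CPM in normoxia, with a median of 20.1, and from 34.0 to 56.3 CPM in hyperoxia, with a median of 38.3. The groups did not overlap (log2 fold change 0.96, SE 0.17, 95% interval 0.60 to 1.32, adjusted p = 0.0008, edgeR; exact permutation p = 0.00117).

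Mrc1, the mannose receptor, lies on the plus strand of chromosome 2, from 14229392 to 14332057. It ran from 65.6 to 127 CPM in normoxia, with a median of 91.2, and from 130 to 200 CPM in hyperoxia, with a median of 150. The gap between the groups was narrow but free of overlap (log2 fold change 0.72, SE 0.16, 95% interval 0.38 to 1.06, adjusted p = 0.00415, edgeR; exact permutation p = 0.00117). Within the libraries named O to S the log2 fold change was 0.32 (adjusted p = 0.14, edgeR), and within B to M it was 0.97 (adjusted p = 0.0213, edgeR). Cd163 and F13a1 gave 1.89 and 1.82, and 1.02 and 0.97, in the sets B to M and O to S.

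Pf4, the gene of platelet factor 4, is made by megakaryocytes and by some macrophages. It ran from 14.3 to 32.5 CPM in normoxia, with a median of 19.0, and from 1.61 to 35.9 CPM in hyperoxia, with a median of 18.2. The groups overlapped, with hyperoxia 1 lowest and hyperoxia 6 highest (log2 fold change -0.10, SE 0.39, 95% interval -0.94 to 0.74, adjusted p = 0.887, edgeR). Without hyperoxia 1 it was 0.14. Folr2, a folate receptor of tissue macrophages, had 63 counts over all 13 libraries and did not pass the filter. It ran from 0 to 5.35 CPM in normoxia, with a median of 0, and from 1.07 to 3.02 CPM in hyperoxia, with a median of 1.92. The highest value was that of normoxia 7, with 18 of the counts, and 4 normoxic libraries were at 0, where 3 counts are worth 0.656 to 1.84 CPM over all libraries (counting error only). The exact permutation p was 0.0519.

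Other interstitial macrophage genes were called about as often as all genes. Of 16 genes, 14 were tested, 2 rose and 2 fell, beside 11.8% higher and 10.8% lower over all genes tested. Their median log2 fold change was 0.07, and 0.19 without hyperoxia 1. Igf1, a growth factor, rose (0.69, SE 0.22, adjusted p = 0.0326, edgeR), as did the membrane protein gene Ms4a7 (0.76, SE 0.26, adjusted p = 0.0498). Cbr2, a carbonyl reductase also made by club cells, fell (-1.43, SE 0.37, adjusted p = 0.011, edgeR), as did the club cell marker Scgb1a1 (-2.96, SE 0.59, adjusted p = 0.00188), whose part in it was not tested. Also lower was the transcription factor Maf (-0.37, SE 0.13, adjusted p = 0.0453, edgeR). The calls of Igf1, Maf and Ms4a7 were lost when some single libraries were left out, 7, 11 and 10 of the 13 in turn. Cbr2 had -1.71 within B to M and -0.24 within O to S (adjusted p = 0.0155 and 0.721, edgeR). The complement genes C1qa, C1qb and C1qc had log2 fold changes of 0.85, 0.13 and 0.57, which did not pass the test.

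Markers of other cells moved beside these genes. Over all genes tested, 11.8% were called higher and 10.8% lower. Of 10 alveolar macrophage genes, 4 fell, among them the ribonuclease Ear1 (-3.03, SE 0.61, adjusted p = 0.00221, edgeR) and the lectin Siglecf (-1.33, SE 0.32, adjusted p = 0.00706), while Marco had 0.98 (SE 0.50, adjusted p = 0.183). With each library left out in turn, Ear1 had -4.16 to -2.70. The summed level of the 10 genes was 283 to 432 CPM in normoxia and 84.7 to 635 CPM in hyperoxia. Chil3 had the highest mean of the list in both conditions, at 118 to 199 CPM in normoxia and 13.9 to 456 CPM in hyperoxia. Its log2 fold change was 0.76 (SE 0.44, adjusted p = 0.235, edgeR). Of 6 monocyte genes tested, 2 rose, Vcan (3.35, SE 0.20, adjusted p = 8.55e-08, edgeR) and Spp1 (1.64, SE 0.39, adjusted p = 0.00639). The other called ones, Ccr2, Plac8 and Ly6c2, which define circulating monocytes, fell by 0.85, 1.69 and 1.67 on the log2 scale. The call of Ly6c2 was lost without normoxia 1 (-1.42, adjusted p = 0.0506, edgeR) and within O to S (-0.66, adjusted p = 0.44). Within B to M the calls of Ccr2 (-0.54, adjusted p = 0.277, edgeR), Plac8 (-2.09, adjusted p = 0.0822), Spp1 (1.31, adjusted p = 0.163) and Ptprc (-0.66, adjusted p = 0.2) were lost. None of the 4 alveolar macrophage calls was kept within O to S, where Ear1 had -2.31 (adjusted p = 0.0896, edgeR), Ear2 -1.06 (0.127), Siglecf -0.82 (0.105) and Krt79 -0.02 (0.984). The call of Krt79 was also lost when any of 10 of the 13 libraries was left out, and that of Siglecf within B to M (-1.77, adjusted p = 0.0546, edgeR). Ptprc, the leukocyte marker CD45, fell (-0.98, SE 0.23, adjusted p = 0.00691, edgeR). The part of these cells in the values of Mrc1, Cd163 and F13a1 was not tested.

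Platelets bear on Pf4, F13a1 and Mmrn1. Of 10 platelet genes, 5 were tested and 1 fell, beside 10.8% of all genes tested. It was the chemokine gene Ppbp (-1.20, SE 0.30, adjusted p = 0.0084, edgeR), which did not pass within B to M (-1.54, adjusted p = 0.0594) or within O to S (-0.63, adjusted p = 0.0966). Gp6 had -0.94 (adjusted p = 0.0682, edgeR), Clec1b -0.65 (0.0705), Gp1bb 0.53 (0.127) and Itga2b -0.03 (0.954). Of the 5, 4 had an unadjusted p under 0.05 in edgeR, and DESeq2, limma-voom and limma on log CPM called 2, 2 and 3. The summed level of the list was 67.1 to 83.3 CPM in normoxia and 51.8 to 61.1 CPM in hyperoxia. The part of platelets in the values of Pf4, F13a1 and Mmrn1 was not tested.

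Blood endothelium bears on Lyve1 as a vessel gene. Of 10 genes, 1 rose and 3 fell, beside 11.8% and 10.8% of all genes tested. Egfl7 rose (1.37, SE 0.33, adjusted p = 0.00715, edgeR), with 0.84 (adjusted p = 0.00153) without hyperoxia 1. Of those that fell, Tek, the angiopoietin receptor, had -0.94 (SE 0.16, adjusted p = 0.000566). Cdh5, the cadherin of endothelial junctions, had 0.18 (SE 0.12, adjusted p = 0.307). Of 7 venous genes tested, 1 rose, Selp, the adhesion molecule P-selectin of endothelium and platelets (1.88, SE 0.25, adjusted p = 6.79e-05, edgeR), and 3 fell, with Slc6a2 at -1.88 (SE 0.26, adjusted p = 0.000125), which did not pass within O to S (-1.21, adjusted p = 0.064). Vwf, which is on both lists, had -1.18 over all libraries and 0.11 within those named O to S.

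Genes of hyaluronan, the ligand of LYVE1, were also read. Of 17 genes, 11 were tested, 2 rose and 1 fell, beside 11.8% and 10.8% of all genes tested. Their median log2 fold change was -0.11, and -0.17 without hyperoxia 1. Vcan, the hyaluronan-binding proteoglycan versican, rose as given above, and so did the membrane protease Mmp14 (0.85, SE 0.22, adjusted p = 0.011, edgeR). Tmem2, a surface hyaluronidase, fell (-0.59, SE 0.15, adjusted p = 0.012, edgeR). Within B to M neither call was kept (Mmp14 0.60 and Tmem2 -0.69, adjusted p = 0.256 and 0.0699, edgeR). The receptor Cd44 had -0.11 (SE 0.18) and the receptor Stab1 0.01 (SE 0.18). The synthase Has2 was too low to test, with means of 0.624 ± 0.48 CPM for the 7 normoxic and 4.11 ± 2.04 CPM for the 6 hyperoxic libraries (SD), and 5 of 6 hyperoxic libraries above all normoxic ones.

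**Figure D3:**
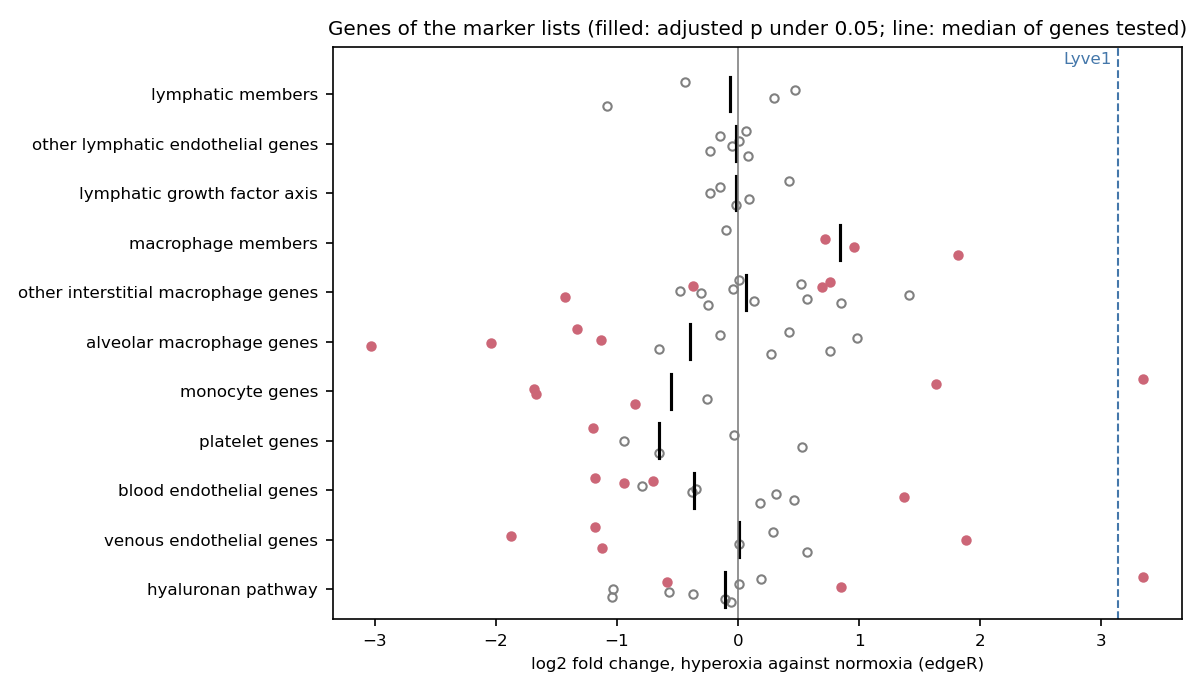
log2 fold change of each tested gene in the marker lists, 1 point per gene (filled where the edgeR adjusted p was under 0.05), with the median of each list as a line. The dashed line is Lyve1 at 3.14, and Vcan at 3.35 is the 1 gene beyond it.

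Lyve1 was then set against each marker set within a library, as log2 CPM of Lyve1 minus the mean log2 CPM of the set, which the choice of Lyve1 makes a description. Over the lymphatic markers this was 5.50 ± 0.55 (SD, n = 7) in normoxia and 8.91 ± 0.58 (SD, n = 6) in hyperoxia, a difference of 3.41. Over the 4 tested macrophage markers it was 4.98 ± 0.36 (SD, n = 7) and 7.36 ± 0.45 (SD, n = 6), a difference of 2.39. The mean of the macrophage markers itself differed by 0.72, with hyperoxia 1 at 4.27 inside the normoxic range of 4.14 to 4.43, and that of the lymphatic markers by -0.30, beside 3.11 for Lyve1. Lyve1 thus stood higher in hyperoxia relative to both sets in every library.

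**Figure D4:**
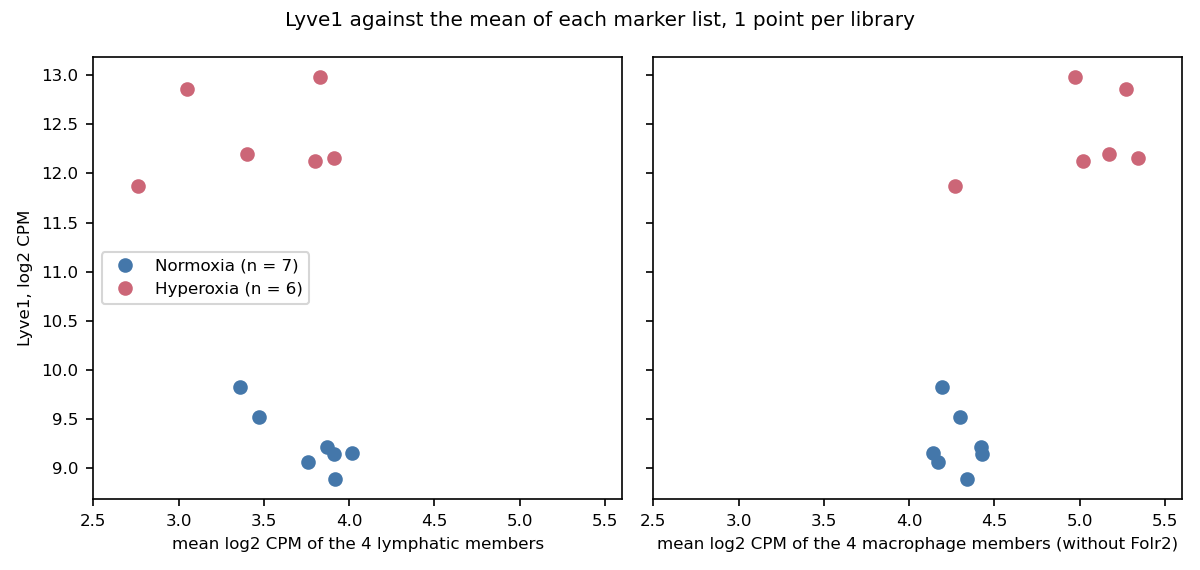
log2 CPM of Lyve1 (vertical axis) against the mean log2 CPM of the 4 lymphatic markers (left) and of 4 macrophage markers without Folr2 (right), 1 point per library. Hyperoxic libraries lie between 11.87 and 12.98 for Lyve1 and normoxic ones between 8.89 and 9.83, and the means of both marker sets overlap between the conditions, the macrophage means through hyperoxia 1 at 4.27.

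Within a condition the difference that chose Lyve1 plays no part, so each marker was correlated with Lyve1 over the 7 normoxic and over the 6 hyperoxic libraries apart. Of these 18 relations, 0 passed an adjusted p of 0.05, with a smallest adjusted p of 0.214 for Spearman's rho and 0.446 for Pearson's r (exact permutation tests, two-sided). At a raw p under 0.05 there were 2 for rho and 1 for r. In hyperoxia Folr2 had a rho of 0.94 and an r of 0.68 (exact permutation p = 0.0167 and 0.143), and r was 0.22 without the 2 libraries farthest from the median of Folr2. In normoxia F13a1 had a rho of -0.86 and an r of -0.67 (exact permutation p = 0.0238 and 0.126; r again -0.67 without the 2 farthest). Prox1 in normoxia had an r of -0.88 and a rho of -0.68 (exact permutation p = 0.0248 and 0.11). That relation rests on the 2 farthest libraries, since r was 0.14 without them. The smallest p such tests can give is 0.000397 for 7 libraries and 0.00278 for 6.

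**Figure D5:**
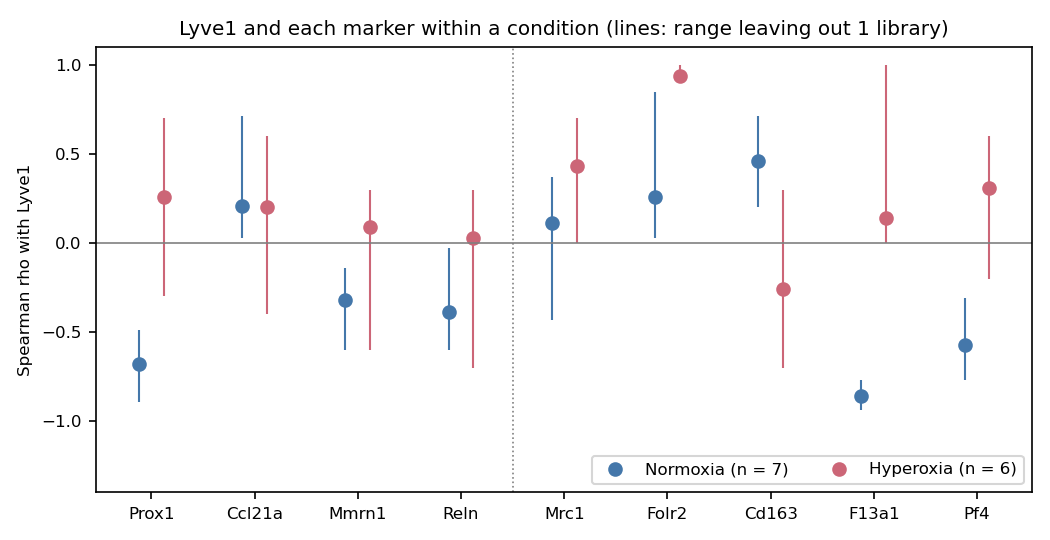
Spearman's rho between Lyve1 and each marker within normoxia and within hyperoxia, with lines for the range when 1 library is left out. Lymphatic markers are left of the dotted line, and none of the 18 values passed an adjusted p of 0.05.

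The genes most like Lyve1 across libraries were sought by Spearman's rho of deviations from the condition means over the 13 libraries, among the 10111 genes whose log2 CPM averaged 3 or more. These libraries share depth and composition effects, so the values are a description. The 10 genes were Galnt15 (rho 0.93), Larp1 (0.90), Inhbb (0.90), Cyp4x1 (0.87), H2-T23 (0.87), Prrc2a (0.87), Gnao1 (0.84), Pld1 (0.83), Sumf1 (0.83) and Fam134b (0.82), which hold 0 of the 6 markers above that level. Ties at the last place were broken by the alphabet, and 12 genes stood at rank 10 or better with those ties counted. Of the 6 markers, Mrc1 came 1663rd (0.34), Ccl21a 4619th (0.04), Reln 5684th (-0.06), Mmrn1 6001st (-0.09), Pf4 6578th (-0.15) and F13a1 7368th (-0.24). Cd163 and Prox1 averaged less than this level and could not be among the 10, and their rho of 0.21 and -0.29 would stand 2947th and 7796th in the same order. Folr2 was not ranked. Without hyperoxia 1, 5 of the 10 genes stayed among the 10, or 6 with a tie at the last place counted.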

How the data were processed

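Lung RNA of 7 normoxic and 6 hyperoxic samples was sequenced by Quant-seq. The authors pseudoaligned reads with kallisto in BioJupies and deposited whole-number counts per gene symbol, with no low-count filter. They also deposited log10 values, which were recomputed as log10 of CPM plus 1 to within 4.4e-16. The submitters' processing notes name mm10 and limma 3.54.2, and the annotation is not given in the sources used here. Groups came from the treatment named in the sample labels, and 0 columns belonged to other samples.

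The quasi-likelihood test of edgeR 4.0.16 (R 4.3.3) was run on the counts. The filter filterByExpr kept 12496 of 32544 symbols, and TMM set the scaling. Log2 CPM used a prior count of 2. Exact permutation tests were enumerated in Python with numpy 2.4.6, and ranks came from scipy 1.17.1. All 36 pairs of libraries of 1 condition differed beyond sampling noise. Coordinates came from GENCODE on GRCm38, matched by symbol, and Figf and Tmem2 stand for Vegfd and Cemip2.

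The named genes are the 10 genes, from each other list those with the smallest adjusted p or needed as markers, and the 10 most like Lyve1. Members and lists were chosen with earlier results of these data known. Alternatives were DESeq2 1.42.0, limma-voom and limma 3.58.1 on log CPM, library size alone, 2 other filters, the replicate number as a block, the sets of library names, and each library left out in turn. Summing the Ccl21 copies, list medians without hyperoxia 1 and the alternatives for genes of the other lists were added after seeing the data.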

Additional observations from a re-analysis of the deposited data

Results flagged for a closer look

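In 26 groups of values (the 10 genes, Lyve1 relative to each marker set and the total count, each in both conditions), 5 held a library far from the others, judged by its gap to the nearest library as a share of the group's range. Genes were judged on the log2 CPM scale, where low values spread further apart than in CPM, and total counts as they are. The limit was 0.625 for 6 libraries and 0.568 for 7, and chance passes it in about 1 in 20 groups. In hyperoxia, hyperoxia 1 was far below the others for Mmrn1 (0.732) and for Pf4 (0.651), at 2.68 and 1.61 CPM. In normoxia, normoxia 7 was far above for Folr2 (0.571), at 5.35 CPM, and normoxia 5 far above for F13a1 (0.636), at 30.0 CPM. The total count of normoxia 5 was far below the others (0.612), at 1607111.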

How the results depend on the processing

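Lyve1 had log2 fold changes of 3.03 to 3.27 when each library was left out in turn, and 3 macrophage markers rose each time. Counts of all genes called were 2305 to 3633 (1256 to 1934 higher, 1049 to 1699 lower), and of lymphatic markers 0 to 1. Of genes of the other lists, 5 to 12 were higher (7 with all libraries, 12 without hyperoxia 1). Those lower were 16 to 23 (20 with all libraries). With all libraries, 11.8% of all genes tested were called higher and 10.8% lower.

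Correlations of deviations between libraries of the same replicate number were -0.325 to 0.272. Libraries of unlike number were not compared, so these values cannot say whether the numbers pair the samples. With the replicate block, 1344 genes were called (718 higher, 626 lower), against 2819 without it, and 2 and 9 genes of the other lists. Lyve1 had 3.08, and Cd163, F13a1 and Mrc1 passed the test still (adjusted p = 0.00819, 0.0258 and 0.028, edgeR), while these called genes of the other lists did not: Cbr2, Ccr2, Egfl7, Igf1, Krt79, Ly6c2, Maf, Mmp14, Ms4a7, Plac8, Ppbp, Siglecf, Spp1, Tie1, Tmem2 and Vwf (adjusted p from 0.0508 to 0.197, each with its sign kept).

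Within B to M, 1120 genes were called (679 higher, 441 lower), with 3 higher and 10 lower of the other lists. Within O to S, 2794 genes were called (1438 higher, 1356 lower), with 13 higher and 12 lower of the other lists. Limma on deposited log CPM called 3 of the other lists higher. With it all calls split 1097 higher and 1729 lower, with 1473 and 1346 in edgeR, and the median of all genes moved by -0.13. Lymphatic markers called became 1 with DESeq2, within O to S, without normoxia 6 and with copies summed. Signs turned for Ccl21a (0.18), Pf4 (0.54), Folr2 (-0.40, against 0.87 with no filter) and Vwf (0.11) within O to S, for Reln (0.32) and Mmrn1 (-5.67e-05) within B to M, and for Pf4 without normoxia 5 (0.04) and hyperoxia 1 (0.14; range -0.39 to 0.14 over libraries left out). Of the 10 genes most like Lyve1, 5 were shared without hyperoxia 1 (6 with a tie counted) and 4 with Pearson's r. Without hyperoxia 1 the median log2 fold change went from -0.40 to -0.22 in the alveolar macrophage list and from 0.01 to -0.28 in the venous list. The cause was not tested. At 1607111 to 4540288 counts, low genes such as Folr2, Prox1 and Cd163 carry few counts.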
